A study of Mus musculus with 4 samples.

Results

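Replication-dependent histone genes make the bulk histones H1, H2A, H2B, H3 and H4 that package newly copied DNA. They were taken from the deposited table by symbol, as every row named Hist1h, Hist2h, Hist3h or Hist4h, which gave 66 of 17300 genes. By class these were 6 H1, 17 H2A, 18 H2B, 12 H3 and 13 H4 genes. Of 70 such symbols in the reference names, 4 (Hist1h2aa, Hist1h2aj, Hist1h2al and Hist1h2ba) were not among the rows analysed here. Variant histones such as H2afz and H3f3a were left out of the set and are described apart.

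Splenic dendritic cells of mice were flow-sorted for their RNA, in 2 samples labelled KO and 2 labelled WT. The series title names Siglec-E, an inhibitory receptor for sialic acid on myeloid cells, so the comparison asks what differs when that receptor is lost. The labels give the genotype only as KO or WT. They leave out strain, age, sex, the deleted gene and any treatment, although all column names begin with Allo. Because the KO columns are numbered differently from the KO titles, those libraries are named KO A and KO B here, while WT 1 and WT 2 match their titles. Paired values are given with KO A before KO B and WT 1 before WT 2. The labels do not say whether replicates are separate animals, so p-values reflect only how these libraries vary, and that variation could be technical.

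Histone genes are switched on in S phase, when the coactivator NPAT is activated by cyclin E and CDK2 at the histone gene clusters. Their mRNAs are the ones in animal cells that normally end in a conserved stem-loop rather than a poly(A) tail. The stem-loop is bound by SLBP, which serves processing, translation and decay of the mRNA, and the mRNAs are degraded when DNA synthesis stops. The labels' protocols name a stranded total RNA kit, which does not depend on a poly(A) tail.

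As a check of the labels, Siglece, the gene of Siglec-E, was at 8.92 and 8.96 in KO and at 10.38 and 10.14 in WT (deposited log2 values), a difference of -1.32 (SE 0.107, limma adjusted p = 0.0138). The libraries held between 29002408 and 30952251 back-transformed counts, which are normalized read counts recovered from the deposited values and not the depth in reads. The 17 conventional dendritic cell markers were all in the table and held between 1.33% and 1.96% of these counts. KO A stood apart in Y-linked RNA, with Ddx3y at 8.74 against 11.82 to 12.13 in the other libraries, so values without KO A are given below.

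In GENCODE M21 transcripts, the histone stem-loop of 16 bases was found in 46 of the 66 genes (69.7%), against 80 of 55450 genes overall (0.144%), which include the 46. Of the 20 genes without a match, 14 have a model with few or no annotated bases after a stop codon, where a stem-loop would lie. These 14 include Hist3h2bb-ps, a pseudogene by its symbol. In the other 6, among them Hist1h1a and Hist2h2be, the model goes on after the stop. The stem-loops below are shown with up to 5 flanking bases, 5′ to 3′, with the stem-loop in capitals, for the H1, H3 and H4 genes with the highest counts and for genes that differ from them in loop or stem.
Hist1h1c: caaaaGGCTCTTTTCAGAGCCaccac
Hist1h3b: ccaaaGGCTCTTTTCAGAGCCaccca
Hist1h3c: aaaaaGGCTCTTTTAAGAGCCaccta
Hist2h2ac: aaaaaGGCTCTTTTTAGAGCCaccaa
Hist1h4d: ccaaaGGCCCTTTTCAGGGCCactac
Hist1h4j: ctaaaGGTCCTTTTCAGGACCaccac
The form of Hist1h1c was the most frequent, in 26 genes of the H1, H2A, H2B and H3 classes. The 12 H4 genes with a match carried GGCCC or GGTCC stems, and the other 34 carried a GGCTC stem. H2afx, a variant outside the set, also matched. Counts of higher genes for models with and without the stem-loop are given below.

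Histone RNA was higher in the KO libraries in nearly every gene of the set. Of the 66 genes, 63 had a positive difference and 61 had both KO libraries above both WT libraries. In 2 genes both KO libraries were below both WT libraries, and 3 overlapped. The median difference over the 66 was 0.52 (log2, KO minus WT) and the median ratio of mean counts was 1.61, with quartiles of 1.49 and 1.73.

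Of the 66 genes 63 passed the filter on low values, and the 3 left out were Hist1h1t, Hist2h3c1 and Hist3h2bb-ps. 1 of the 63, Hist3h2ba, passed only through its KO values. In limma fitted on all 11864 tested genes, 27 of the 63 were higher at an adjusted p below 0.05, 0 were lower and 36 did not pass. Over all tested genes 4.69% were called higher and 2.23% lower, 6.93% in either direction. An adjusted p below 0.1 was reached by 48, and 58 had an unadjusted p below 0.05, all 58 of them higher in KO. Of all 11864 tested genes 1686 were higher and 1242 lower at that unadjusted threshold. These numbers are also the background for the unadjusted counts of the lists below. The median difference of all tested genes was -0.00, against 0.53 for the tested histone genes. Both KO libraries lay above both WT libraries in 59 of the 63, against 28.1% of all tested genes, and below them in 2, against 28.2%.

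The calls rest on both KO libraries, as none of them held in limma when either was left out. The median difference of the tested histone genes was 0.66 without KO A and 0.41 without KO B. Over all tested genes it was -0.011 and 0.0096. In these fits 0 and 3 genes of the whole table passed. The median difference of the tested histone genes was 0.44 without WT 1 and 0.62 without WT 2. With quantile normalization 14 of the 63 histone genes passed, against 3.08% of all tested genes called higher. The share of all calls that were higher was then 56.5% in place of 67.8%.

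**Figure D1:**
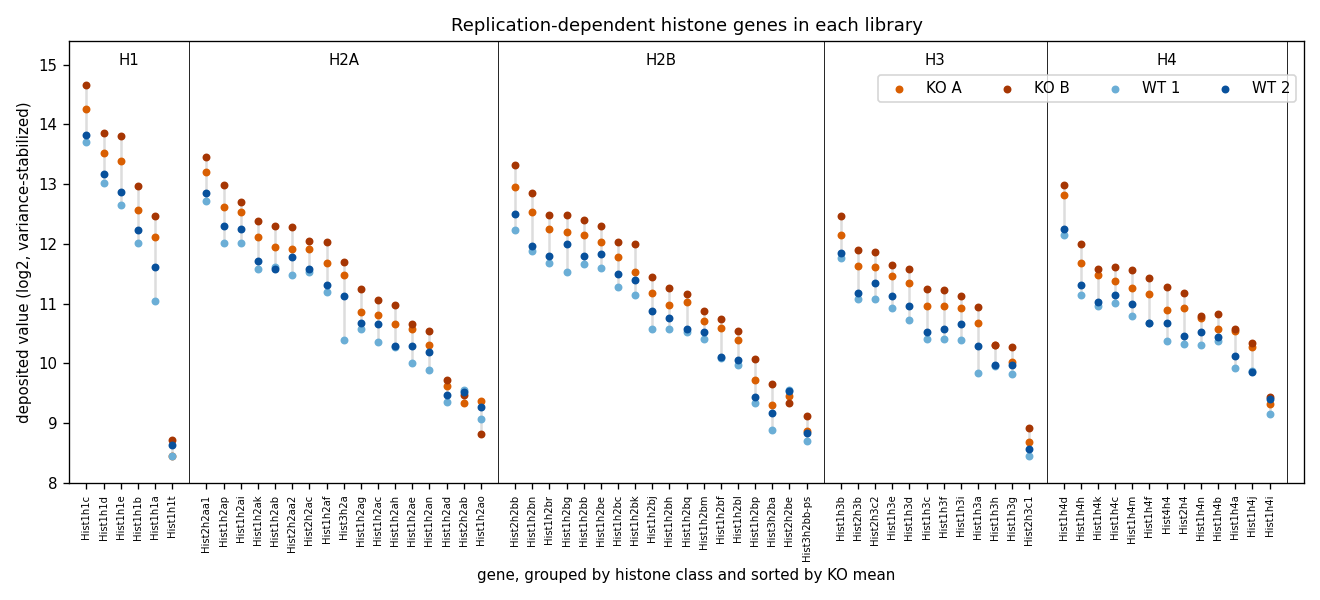
Deposited log2 value of each of the 66 histone genes (x axis, grouped by class and sorted by KO mean) in the 4 libraries (points). KO B is the highest point and WT 1 the lowest in most genes, and the groups overlap in 3 genes.

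The libraries kept 1 order across the set. In 58 of the 66 genes KO B was highest, followed by KO A, WT 2 and WT 1. Among the tested histone genes 56 of 63 showed this order, against 9.68% of all tested genes. KO B was a median of 0.25 above KO A, and WT 2 was 0.15 above WT 1, as medians over the tested histone genes. Over all tested genes these medians were -0.0019 and 0.012. KO B was highest and WT 1 lowest in 57 of the 63, against 12.3% of all tested genes.

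Summed over all 66 genes, histone RNA held 0.598% (KO A), 0.769% (KO B), 0.410% (WT 1) and 0.472% (WT 2) of the back-transformed counts. The groups did not overlap. The KO mean was 0.683% ± 0.120 (SD, n = 2) and the WT mean 0.441% ± 0.0436 (SD, n = 2), a ratio of 1.55. An exact two-sided permutation test of 2 against 2 samples gave p = 0.33, the smallest it can give. The ratio was 1.36 for KO A alone and 1.74 for KO B alone. In bulk samples, fewer cells of a type and less RNA per cell cannot be told apart.

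H1 genes gave 27.0% and 28.4% of histone counts in KO and 26.7% and 26.3% in WT, and H2A genes 24.7% and 24.3% in KO and 25.7% and 25.8% in WT. In both classes the groups did not overlap, with H1 higher and H2A lower in KO. Such a split is frequent with so few libraries. Among all tested genes 28.1% had both KO libraries above both WT libraries, and 28.2% had them below. The class shares are also parts of the same total, so they do not move separately. H2B genes gave between 23.3% and 23.8%, with overlap. H3 genes gave 10.99% to 11.2% and H4 genes 12.8% to 13.5%, also with overlap. These shares follow transcript length as well as number, so they do not rank the classes by molecules.

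**Figure D2:**
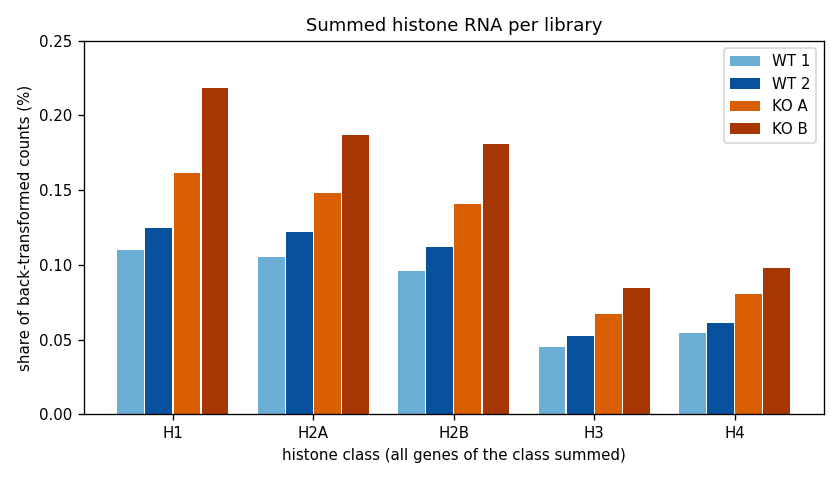
Share of back-transformed counts (y axis, percent) held by all genes of each histone class (x axis), with 1 bar per library. In each class both KO bars stand above both WT bars, as for H1 with 0.162% and 0.218% in KO against 0.110% and 0.124% in WT.

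Linker histones of the H1 class bind the DNA where it enters and leaves the nucleosome. Among 5 tested H1 genes 4 rose, 0 fell and 1 missed the threshold, with a median difference of 0.70. Hist1h1c, the gene of H1.2, was at 14.26 and 14.66 in KO and at 13.70 and 13.82 in WT. It rose by 0.70 (SE 0.139, adjusted p = 0.0389), its mean count was 1.67-fold that of WT, and it held 38.6% of H1 counts.

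Hist1h1a, the gene of H1.1, had the largest difference of the tested set. Its values were 12.11 and 12.46 in KO and 11.05 and 11.62 in WT. It rose by 0.95 (SE 0.200, adjusted p = 0.0440), or 2.12-fold in counts, and the WT libraries differed by more than the KO libraries. Hist1h1e, the gene of H1.4, was at 13.39 and 13.80 in KO and at 12.65 and 12.86 in WT, with no overlap, and rose by 0.84 (SE 0.149, adjusted p = 0.0313). Hist1h1d, the gene of H1.3, rose by 0.59 (adjusted p = 0.0465). Hist1h1b, the gene of H1.5, differed by 0.65 but did not pass (adjusted p = 0.0526). The testis H1 gene Hist1h1t was near the lowest value, between 8.45 and 8.71 in all libraries, and was not tested.

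H2A and H2B form the dimers on the faces of the nucleosome, and many of their genes stand back to back and share the space between them. Among 17 tested H2A genes 4 rose, 0 fell and 13 missed the threshold, with a median of 0.47. The adjusted p of Hist1h2ap and Hist1h2ai, among the most abundant, was 0.0526 and 0.0536. Hist2h2aa1 was at 13.19 and 13.45 in KO and at 12.72 and 12.84 in WT, and rose by 0.54 (SE 0.110, adjusted p = 0.0405). Hist1h2ak rose by 0.61 (adjusted p = 0.0323), Hist1h2af by 0.61 (adjusted p = 0.0450) and Hist2h2ac by 0.43 (adjusted p = 0.0399). In Hist2h2ac the replicates lay close, at 11.92 and 12.05 in KO and 11.53 and 11.58 in WT.

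Among 17 tested H2B genes 7 rose, 0 fell and 10 did not pass, with a median of 0.52. Hist1h2bn had the smallest p of the class, with 12.54 and 12.85 in KO and 11.88 and 11.97 in WT. It rose by 0.77 (SE 0.119, adjusted p = 0.0241), and its mean count was 1.82-fold that of WT. Hist2h2bb also rose by 0.77 (SE 0.146, adjusted p = 0.0361), from 12.23 and 12.50 in WT to 12.96 and 13.32 in KO. Hist1h2br and Hist1h2bf rose by 0.63 and 0.57 (adjusted p = 0.0265 and 0.0271). The others that rose were Hist1h2bq, Hist1h2bb and Hist1h2bl, by between 0.46 and 0.55. Hist1h2bg, also abundant, ran from 11.53 in WT 1 to 12.00 in WT 2, and its difference of 0.57 did not pass (adjusted p = 0.102).

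H3 and H4 form the tetramer at the core of the nucleosome. Among 11 tested H3 genes 5 rose, 0 fell and 6 missed the threshold, with a median of 0.53. Hist2h3b was at 11.63 and 11.90 in KO and at 11.07 and 11.17 in WT, and rose by 0.65 (SE 0.113, adjusted p = 0.0293). Hist1h3c rose by 0.64 (adjusted p = 0.0331) and Hist1h3d by 0.61 (adjusted p = 0.0387). Hist1h3b, the most abundant H3 gene by counts, differed by 0.50 (adjusted p = 0.0580), and Hist2h3c2 by 0.52 (adjusted p = 0.0606). In Hist1h3a the difference was 0.74, but WT 1 at 9.83 and WT 2 at 10.30 differed by more than the KO libraries, and it did not pass (adjusted p = 0.0547).

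Among 13 tested H4 genes 7 rose, 0 fell and 6 missed the threshold, with a median of 0.53. Hist1h4d had the smallest p of the whole set. It was at 12.82 and 12.98 in KO and at 12.16 and 12.26 in WT. It rose by 0.70 (SE 0.0915, adjusted p = 0.0191), and its mean count was 1.698-fold that of WT. Hist1h4k rose by 0.54 (adjusted p = 0.0263), from 10.95 and 11.03 in WT to 11.48 and 11.59 in KO. Hist1h4f was at 10.67 in both WT libraries and at 11.17 and 11.42 in KO, and rose by 0.63 (adjusted p = 0.02855). Hist2h4 and Hist1h4h rose by 0.66 and 0.61 (adjusted p = 0.02855 and 0.0427). Hist1h4c, with a ratio of mean counts of 1.44, did not pass (adjusted p = 0.0732).

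**Figure D3:**
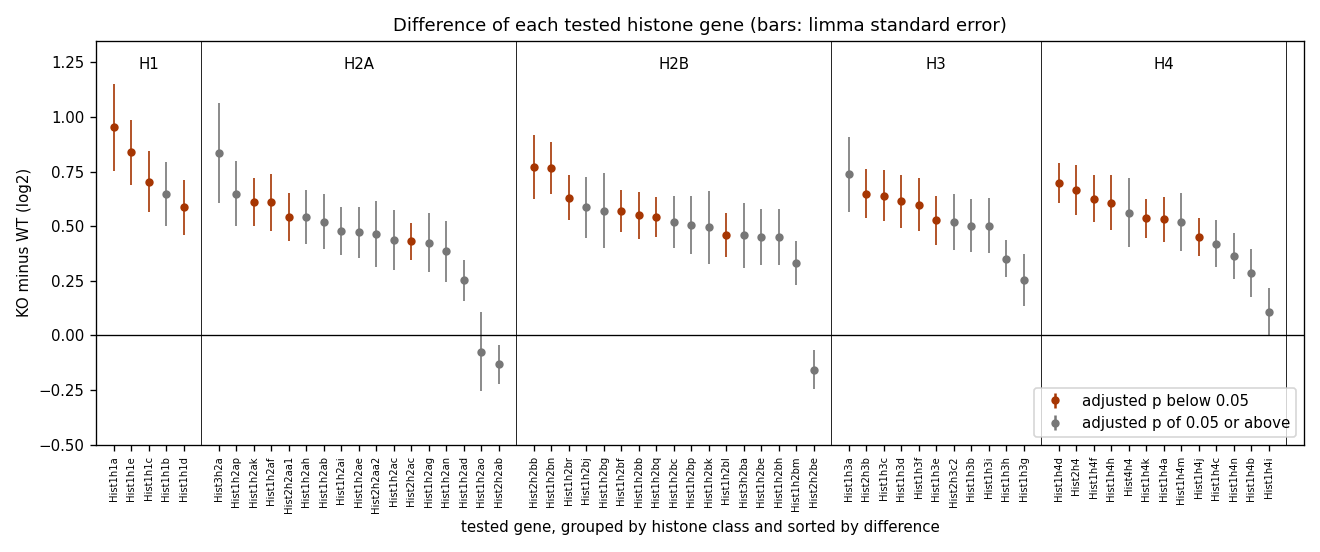
Difference KO minus WT (log2, y axis) of each of the 63 tested histone genes with its limma standard error (bars), by class. The 27 genes past the threshold lie between 0.43 and 0.95, and 3 genes lie below 0.

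A few genes stood outside the common shift. Hist2h2be, an H2B gene known for polyadenylated transcripts in differentiated cells, was at 9.45 and 9.34 in KO and at 9.56 and 9.55 in WT. Its difference was -0.16 (SE 0.0882, adjusted p = 0.328), with both KO libraries below both WT libraries. Hist2h2ab, an H2A gene of the same cluster, was likewise at 9.34 and 9.46 in KO and 9.55 and 9.52 in WT, a difference of -0.13 (adjusted p = 0.413). Hist1h2ao, an H2A gene, was at 9.37 and 8.82 in KO and at 9.07 and 9.27 in WT, a difference of -0.08 (adjusted p = 0.843). The H4 gene Hist1h4i was at 9.32 and 9.44 in KO and at 9.15 and 9.40 in WT, a difference of 0.11 (adjusted p = 0.608). Both overlapped between groups. The sign of Hist1h2ao turned to 0.20 without KO B and 0.028 without WT 2, and that of Hist1h4i to -0.017 without WT 1. These 4 genes, singled out after their values were seen, were all at low levels, between 8.82 and 9.56. Low level was not particular to them. Hist3h2ba, Hist1h2ad and Hist1h2bp had WT values between 8.88 and 9.48, with both KO libraries above both WT libraries. Their differences of 0.46, 0.25 and 0.51 did not pass in limma (adjusted p = 0.121, 0.161 and 0.0739). Low values are compressed on the deposited scale. The ratio of mean counts for Hist2h2be was 0.791, recovered from the same values and so not a second measure of direction.

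Hist2h2be and its back-to-back neighbour Hist2h2ac, whose starts face away from each other, differed in direction. Hist2h2ac was above Hist2h2be by 2.47 and 2.71 in KO and by 1.97 and 2.03 in WT (log2 difference between the genes within a library). Both KO libraries were above both WT libraries for Hist2h2ac and below them for Hist2h2be, so this gap could not overlap between groups. The gap adds nothing to the values of the single genes. With 2 samples each no exact test can go below p = 0.33. In all, 12 such H2A and H2B pairs were found from the gene order of the reference annotation, 1 of them with the untested Hist3h2bb-ps. In the pair Hist1h2bq and Hist1h2ao, the first was above the second by 1.65 and 2.33 in KO and by 1.46 and 1.298 in WT. This pair was chosen after the values were seen. Both genes share most of their sequence with other members, so the gap is uncertain. The gap between the differences of the genes in a pair had a median of 0.14 and a range of 0.02 to 0.62. Both genes rose in 1 pair, Hist1h2ak with Hist1h2bn, and 1 gene rose in 5 pairs.

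By genome position, 52 genes carry Hist1 symbols, on chromosome 13. Of the 51 tested, 22 rose, with a median of 0.53. The Hist2 genes on chromosome 3 had 5 of 9 tested genes higher, with a median of 0.52. Hist3h2a on chromosome 11 was at 11.48 and 11.70 in KO and at 10.39 and 11.13 in WT, a difference of 0.84 that did not pass (adjusted p = 0.0815). Hist4h4, the H4 gene on chromosome 6, differed by 0.56 (adjusted p = 0.0884).

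Of 5 members named as polyadenylated in differentiated cells, 1 (Hist1h1c) rose, 0 fell and 4 did not pass. Hist3h2a, Hist1h2bc and Hist1h2be had differences of 0.84, 0.52 and 0.45, against -0.16 for Hist2h2be. Of 27 small RNAs without a poly(A) tail that were listed for comparison, 0 were found in the table by symbol, so whether other RNAs of that kind moved was not tested.

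Many members share sequence, and reads from near-identical copies can be split between them. In GENCODE M21 a median of 39.0% of the 31-base words of a histone gene model occurred in no other gene. In 5 genes none was unique, among them Hist2h2aa1, Hist2h3b and Hist2h2bb, whose words all recur in predicted genes with Gm symbols. Hist1h2ao shared 93.8% of its words with Hist1h2ap, which differed by 0.65, so the value of Hist1h2ao is uncertain. Hist1h2bq shared 98.3% of its words with Hist1h2br, so its value is uncertain too. For the 25 genes with at least 50% unique words, 23 were tested and 11 rose, with a median of 0.55. For the 41 below that share, 40 were tested and 16 rose, with a median of 0.52. Hist1h1a with 99.7% unique words, Hist2h4 with 97.4% and Hist1h4d with 85.3% rose, and Hist2h2be, with 97.2%, did not. By stem-loop, 17 of 44 tested genes with it in the model rose, with a median of 0.52, and 10 of 19 without it, with a median of 0.54.

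**Figure D4:**
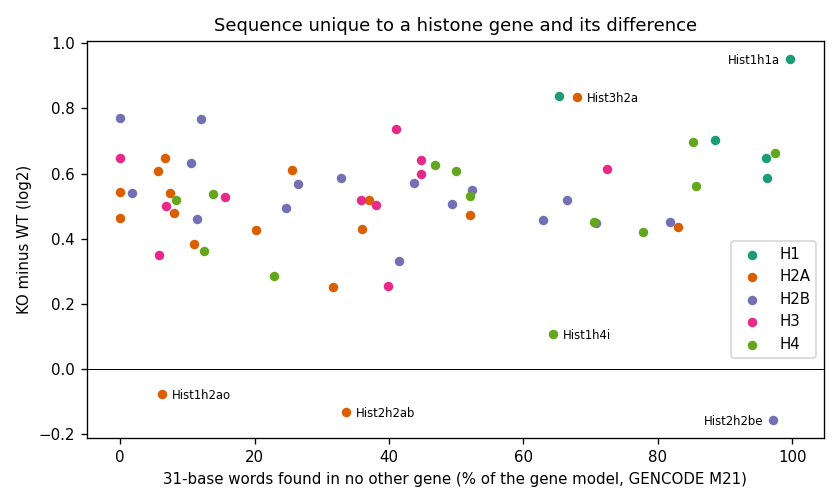
Difference KO minus WT (log2, y axis) against the share of 31-base words of a gene model that occur in no other gene (x axis, percent), for the 63 tested histone genes coloured by class. Positive differences occur along the whole x axis, and the 3 negative genes are at 6.22%, 33.6% and 97.2%.

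Promoters of 60 members were matched to RefSeq (build GRCm38.p6). The 250 bases before each start were searched on both strands for the CCAAT box, the TATA box as TATAAA, the octamer ATTTGCAT known from H2B promoters, the sequence AAACACAAA known from H1 promoters and GGTCCG, part of the site of the H4 regulator HINFP. CCAAT was found in 49 of 60 (81.7%), against 33.8% of 32851 promoters, and TATAAA in 27 (45.0%) against 12.4%. By class, CCAAT was in 6 of 6 H1, 17 of 17 H2A, 15 of 15 H2B and 8 of 10 H3 promoters. Only 3 of 12 H4 promoters held it, that of Hist1h4d among them. The octamer was in 6 of 17 H2A and 5 of 15 H2B promoters, 18.3% of the set against 1.60% of all. GGTCCG was in 9 of 12 H4 promoters and in 2 others, 18.3% against 6.72%. AAACACAAA was in 3 (5.0%) against 0.642%, in 1 of 6 H1, 1 of 17 H2A and 1 of 15 H2B promoters. A match is a description of the letters only.

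Shown here are the promoters of the genes that lead the H1, H4 and H2B results and of Hist2h2ac, 5′ to 3′ on the gene's strand, with the matches in capitals. Hist1h1a (H1f1) is at chr13:23763418-23763667 on the + strand, Hist1h4d (H4c4) at chr13:23581318-23581567 on the + strand, Hist1h2bn (H2bc15) at chr13:21753826-21754075 on the + strand and Hist2h2ac (H2ac20) at chr3:96220881-96221130 on the - strand (GRCm38.p6).
Hist1h1a: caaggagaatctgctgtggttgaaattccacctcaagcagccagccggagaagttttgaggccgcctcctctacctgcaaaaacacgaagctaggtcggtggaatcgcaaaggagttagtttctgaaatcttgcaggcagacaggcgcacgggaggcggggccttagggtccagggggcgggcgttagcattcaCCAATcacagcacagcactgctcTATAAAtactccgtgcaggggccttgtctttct
Hist1h4d: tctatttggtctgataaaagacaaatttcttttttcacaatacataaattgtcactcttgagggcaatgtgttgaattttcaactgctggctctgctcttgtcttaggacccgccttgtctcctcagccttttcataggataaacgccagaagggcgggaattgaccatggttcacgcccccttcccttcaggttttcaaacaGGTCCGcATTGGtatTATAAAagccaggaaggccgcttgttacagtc
Hist1h2bn: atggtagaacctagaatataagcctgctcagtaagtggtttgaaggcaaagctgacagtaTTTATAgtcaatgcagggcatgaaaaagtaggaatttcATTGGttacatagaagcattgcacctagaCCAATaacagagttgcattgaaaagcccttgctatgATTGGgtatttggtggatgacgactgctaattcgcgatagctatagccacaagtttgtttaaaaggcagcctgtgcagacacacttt
Hist2h2ac: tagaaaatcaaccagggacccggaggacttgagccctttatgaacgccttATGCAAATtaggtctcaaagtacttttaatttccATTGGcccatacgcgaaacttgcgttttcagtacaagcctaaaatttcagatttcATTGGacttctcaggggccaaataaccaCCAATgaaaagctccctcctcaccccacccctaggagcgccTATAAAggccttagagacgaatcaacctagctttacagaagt
All 4 hold a match to CCAAT and a match to TATAAA, on either strand. In Hist1h2bn the TATAAA match is on the other strand and nearer the upstream end than the start. The letters alone do not make it a TATA box. The promoter of Hist1h4d also holds a match to GGTCCG, and that of Hist2h2ac a match to the octamer on the other strand.

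Genes that regulate, process and decay histone mRNA had a median near that of all genes. Among the 30 tested genes 5 rose, 0 fell and 25 did not pass, with a median of 0.03. At an unadjusted p below 0.05 6 were higher and 1 was lower. Slbp, the stem-loop binding protein, was at 11.75 and 11.76 in KO and at 11.36 and 11.35 in WT, and rose by 0.40 (SE 0.0784, adjusted p = 0.0389). Ccne1, which encodes cyclin E1, rose by 0.45 (adjusted p = 0.0381), and the cyclin-dependent kinase inhibitor gene Cdkn1a rose by 0.85 (adjusted p = 0.0359). The other 2 were Cdkn1b and the uridylyl transferase gene Tut7, by 0.43 and 0.39. Npat, the histone gene coactivator, differed by 0.04 (adjusted p = 0.847), Casp8ap2, whose product FLASH takes part in 3′ processing, by 0.01, and Lsm11, of the U7 particle, by -0.11.

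Genes of S phase and mitosis give the background of cell division. Of 42 S phase genes 5 rose, 0 fell and 37 did not pass, with a median of 0.19, and 17 were higher and 0 lower at an unadjusted p below 0.05. Besides Slbp and Ccne1, Lig1, the ligase that joins Okazaki fragments, rose by 0.43 (adjusted p = 0.0389), and the others were the licensing factor gene Cdt1 and the clamp loader gene Rfc4, by 0.44 and 0.41. Pcna, the sliding clamp, differed by 0.58 (adjusted p = 0.0567). Of 24 mitosis genes 1 rose, 0 fell and 23 did not pass, with a median of 0.22, and 6 were higher and 0 lower at an unadjusted p below 0.05. That gene, Mki67, was at 14.90 and 15.27 in KO and at 14.31 and 14.55 in WT, in the library order of the histone genes, and rose by 0.66 (adjusted p = 0.0482). Summed, S phase genes held 0.221% and 0.241% of counts in KO and 0.196% and 0.213% in WT, and mitosis genes 0.213% and 0.268% in KO and 0.183% and 0.199% in WT, both in that library order. The histone median of 0.53 was above both list medians, and the gap between the lists was not tested.

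Histone variants outside the set differed in direction from gene to gene. Of 9 tested 3 rose, 0 fell and 6 missed the threshold, with a median of 0.18. At an unadjusted p below 0.05 3 were higher and 1 was lower. H3f3b, 1 of 2 genes of the replacement histone H3.3, was at 14.08 and 14.31 in KO and at 13.08 and 13.55 in WT, and rose by 0.88 (SE 0.165, adjusted p = 0.0347). H3f3a, the other gene of H3.3, differed by -0.01 (adjusted p = 0.943). Cenpa, the centromere H3, rose by 0.46 (adjusted p = 0.0389), and H2afx, the variant of DNA damage signalling that shares the stem-loop, by 0.51 (adjusted p = 0.04995). H2afz differed by 0.18 (adjusted p = 0.262) and the linker variant H1f0 by -0.09 (adjusted p = 0.662).

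The marker lists of all 6 other cell types examined had positive medians, from 0.19 for B and plasma cells and for T cells to 1.71 for red cell precursors. Of 19 tested red cell precursor markers 11 rose and 0 fell, with a median of 1.71. Klf1 and Gata1, both among the 11, passed the filter on low values only through their KO values. The summed share of the red cell list was 0.214% (KO A), 0.308% (KO B), 0.0368% (WT 1) and 0.109% (WT 2), in the library order of the histone, S phase and mitosis genes. The summed shares of the histone variants and of the genes that regulate, process and decay histone mRNA followed that order too. Sptb, the erythroid beta spectrin, was at 12.57 and 13.09 in KO and at 10.44 and 11.34 in WT. NK cell markers rose in 9 of 11 genes, with 0.0540% and 0.0679% in KO and 0.0327% and 0.0311% in WT. For macrophages 5 of 12 markers rose, and the summed shares were 0.0786% and 0.106% in KO and 0.0522% and 0.0460% in WT. For neutrophils 2 of 12 rose, with a median of 0.78 and shares of 0.792% and 0.729% in KO and unequal WT shares of 0.740% and 0.269%.

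Among 11 tested B and plasma cell markers 1 rose, Jchain, and the shares of the list were 0.0530% and 0.0609% in KO and 0.0471% and 0.0411% in WT. Of 7 tested T cell markers 2 rose, Lck and Cd28, the latter of which passed the filter only through its KO values. The list had shares of 0.0370% and 0.0289% in KO and 0.0320% and 0.0360% in WT. Cd3d was at 10.37 and 10.59 in KO and at 10.21 and 10.26 in WT. Its difference of 0.24 did not pass in limma (adjusted p = 0.221). The other CD3 genes, Cd3e and Cd3g, were below the filter, as were Lat and Bcl11b. Of these, Cd3g, Lat and Bcl11b had both KO libraries above both WT libraries, and Cd3e overlapped. Conventional dendritic cell markers fell in 11 of 17 genes (Esam, 1 of the 11, passed the filter only through its WT values), with 1.41% and 1.33% in KO against 1.92% and 1.96% in WT. No marker of these lists was at the lowest value in all libraries. The part of other cells in the histone difference was not tested.

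**Figure D5:**
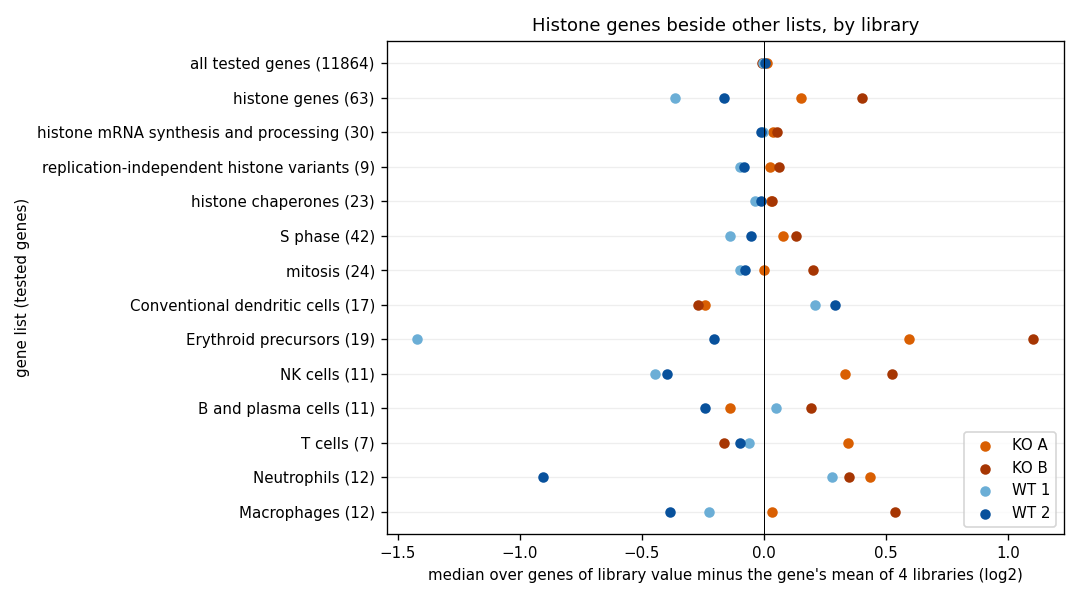
Median over the tested genes of a list of the library value minus the gene's mean of the 4 libraries (log2, x axis), for the histone genes and for comparison lists (y axis, tested genes in brackets). Histone genes, S phase genes, mitosis genes and red cell precursor markers show the same library order from WT 1 to KO B. So do NK cell markers, histone variants and histone chaperones, and the other comparison lists do not. The medians of all tested genes lie near 0 in each library.

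Levels between members were compared per length only. Per kilobase of annotated exon, in back-transformed counts, Hist2h2bb (22467 in KO, 12582 in WT) and Hist2h2aa1 (16687 in KO, 11136 in WT) were highest in both groups. Hist1h2bn (16156 in KO, 8899 in WT) was above Hist1h2ai (14656 in KO, 10179 in WT) in KO and below it in WT. Hist1h1c followed in both (14267 in KO, 8554 in WT). These lengths come from GENCODE M21, where the models of Hist2h2bb, Hist1h2bn and Hist1h2ai end at the stop codon. The models used for counting are not known here, so levels per length are uncertain.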

How the data were processed

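RNA from 2 KO and 2 WT samples was sequenced after a stranded total RNA protocol, per the labels' protocols. The submitters' processing notes name Salmon 1.10.1, DESeq2 and build GRCm39, with no role or order. The deposited table holds log2 values that the authors named as variance-stabilized; the annotation used is not given in the sources used here. All libraries share the lowest value of 8.04, which was taken as a count of 0 to set the constant of the variance-stabilizing formula, and normalized counts were recovered by inverting it. Depth in reads is unknown, so no counting intervals are given. Symbols came from GENCODE M21 (17289 of 17300 identifiers matched), used for names, gene order, transcript sequence and length only.

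The 11864 genes whose mean exceeded the lowest value by 1 log2 unit or more were fitted in limma 3.58.1 under R 4.3.3, with an intensity trend, two-sided, with Benjamini-Hochberg adjustment over all of them, after a check on simulated data. Members were named by level (3 per class) and by smallest p (3 per class and direction), and list genes by smallest p (3 per list); other genes are named after their values were seen. The members and lists were chosen with earlier results of these data known. Alternatives were other filters, no trend, quantile normalization, log2 of the count plus 1 and leaving out each library. The 31-base words and promoter motifs were chosen after the files were seen.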

Additional observations from a re-analysis of the deposited data

How the results depend on the processing

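The median difference of the tested histone genes was positive under every alternative run: 0.52 with no filter on low values, 0.54 with the filter of 2 log2 units, 0.53 with no intensity trend, 0.49 with quantile normalization and 0.68 with log2 of the back-transformed count plus 1. Leaving out each library in turn gave 0.41 to 0.66 for this median, 1.36 to 1.74 for the ratio of summed shares, 0 to 41 histone genes past the threshold and 0 to 820 genes of the whole table. Quantile normalization gave 14 histone genes, all among the 27, and shifted the median of all genes to -0.03. The other alternatives gave between 24 and 33, with 3.47% to 6.07% of all tested genes called higher. Of the 63 tested histone genes 2 changed sign, each only when a library was left out: Hist1h2ao, at -0.08 with all libraries, ranged from -0.35 to 0.20 (positive without KO B and, at 0.028, without WT 2), and Hist1h4i, at 0.11, ranged from -0.017 (without WT 1) to 0.23. Of the 27 calls, 13 were lost with quantile normalization, 3 with log2 of the count plus 1 (Hist1h1a, the largest difference, among them), 1 with no intensity trend (Hist1h1d), 27 without KO A, 27 without KO B, 17 without WT 1 and 3 without WT 2. Without WT 2 17 others were called, and with the filter of 2 log2 units 6 others. When a library is left out, 1 library stands for a group and is assumed to vary like the other. The cause was not tested. No paired analysis was possible because the KO columns carry other numbers than the titles. Low values are compressed, which limits the weakest members.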

Other observations

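Among histone chaperones, which carry histones to and from DNA, 0 of 23 tested genes rose and 0 fell in limma, while 2 were higher and 2 lower at an unadjusted p below 0.05. The median difference was 0.05, with a range from -0.35 to 0.34 (log2, KO minus WT). Chaf1a and Chaf1b, of the factor that places H3 and H4 behind the replication fork, differed by 0.19 (adjusted p = 0.270) and 0.11 (adjusted p = 0.570). Nasp, a chaperone of H1 and of H3 with H4, was at 11.39 and 11.46 in KO A and KO B against 11.19 and 11.23 in WT 1 and WT 2, a difference of 0.21 (adjusted p = 0.175). The chaperones named here were chosen after their values were seen.

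The macroH2A gene H2afy was at 13.63 and 13.49 in KO A and KO B against 13.86 and 13.94 in WT 1 and WT 2. Both KO libraries were below both WT libraries, and the difference of -0.34 did not pass (adjusted p = 0.0712).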
